A study of Mus musculus with 12 samples.

Results

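RAW264.7 cells given gefitinib and then CpG were compared with RAW264.7 cells given CpG alone, on 3 Illumina bead arrays a group, which are 6 of the 12 arrays of the series. The arrays were chosen by their group labels, and the 8101 named genes detected on at least 3 of the 12 arrays were described, from 25697 probes in all. RAW264.7 is an established, transformed mouse macrophage line, so that every array holds 1 line and no donor variation. All cells were grown in DMEM with 10% fetal bovine serum and antibiotics. In the first group gefitinib (labelled Gf) was added at 10 µM 1 h before CpG, and CpG was then present at 10 µg/ml for 6 h. In the second group CpG was given at the same dose and time with no gefitinib. Cells given gefitinib without CpG and untreated cells made up the 2 other groups, and the labels do not say how long they were incubated, nor name a vehicle or the CpG sequence. The labels call the 3 arrays of a group biological triplicates, and the p-values below measure the spread between such cultures. RNA was taken from whole cultures, in which fewer cells of a state and less RNA per cell cannot be told apart.

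CpG oligonucleotides carry the unmethylated CG pairs that are common in bacterial DNA, and they are sensed inside endosomes by the receptor TLR9. In macrophages the adaptor MyD88 then passes the signal to IRAK kinases, NF-kB, the MAP kinases and interferon regulatory factors, which switch on cytokine genes and, through secreted interferon, antiviral genes. Gefitinib is an inhibitor of the tyrosine kinase of the EGF receptor, used against lung cancer, and it can bind other kinases. The series names this comparison as its purpose, which asks what differs when the inhibitor precedes CpG.

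Promoters of 5 genes are shown here because their genes are among those with the largest differences in the groups described below. Each also holds the short motif bound by a factor for which its group is known. Genes with larger differences but without the motif or a listed promoter were passed over. Promoters of Il1rn, Rsad2 and Gars were selected in the same way and are not printed. Sequences are from RefSeq (build GRCm38.p6), run from 250 bases before the annotated gene start to 50 after it, and are written 5′ to 3′ on the gene's strand. Capitals mark the motif, which was searched on both strands. For NF-kB (a kB site) the letters were GGG, any 2 bases, TT, any base and CC. For interferon-activated factors (an interferon-stimulated response element) they were GAAA, any 2 bases and GAAA. TCACNCCAC was searched for the sterol regulator SREBP and TGATGNAA for the amino acid stress factor ATF4, where N is any base. The chemokine genes Cxcl2 (chr5:90903649-90903948, plus strand, 2 kB matches) and Cxcl10 (chr5:92348840-92349139, minus strand, 1 match), the antiviral gene Isg15 (chr4:156200769-156201068, minus strand, 3 overlapping matches) and the sterol gene Hmgcs1 (chr13:119690101-119690400, plus strand, 1 match) followed the rule for named genes. The amino acid transporter gene Slc1a4 (chr11:20332664-20332963, minus strand, 1 match on the opposite strand) was added after its values were seen.
Cxcl2: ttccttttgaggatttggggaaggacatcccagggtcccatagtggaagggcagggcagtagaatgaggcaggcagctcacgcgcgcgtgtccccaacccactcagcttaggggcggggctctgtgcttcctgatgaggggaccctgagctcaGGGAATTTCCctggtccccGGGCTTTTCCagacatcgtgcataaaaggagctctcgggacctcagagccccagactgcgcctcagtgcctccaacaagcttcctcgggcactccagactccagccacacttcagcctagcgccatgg
Cxcl10: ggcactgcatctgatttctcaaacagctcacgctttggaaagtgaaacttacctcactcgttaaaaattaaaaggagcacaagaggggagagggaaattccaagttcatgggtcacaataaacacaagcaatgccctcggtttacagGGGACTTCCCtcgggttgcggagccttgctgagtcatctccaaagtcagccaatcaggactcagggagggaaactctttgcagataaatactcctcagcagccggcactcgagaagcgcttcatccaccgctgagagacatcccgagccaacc
Isg15: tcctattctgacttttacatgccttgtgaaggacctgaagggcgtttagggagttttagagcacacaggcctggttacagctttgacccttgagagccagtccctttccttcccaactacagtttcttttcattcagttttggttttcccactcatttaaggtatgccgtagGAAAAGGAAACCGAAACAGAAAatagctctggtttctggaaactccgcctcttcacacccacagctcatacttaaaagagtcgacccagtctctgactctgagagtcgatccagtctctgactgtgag
Hmgcs1: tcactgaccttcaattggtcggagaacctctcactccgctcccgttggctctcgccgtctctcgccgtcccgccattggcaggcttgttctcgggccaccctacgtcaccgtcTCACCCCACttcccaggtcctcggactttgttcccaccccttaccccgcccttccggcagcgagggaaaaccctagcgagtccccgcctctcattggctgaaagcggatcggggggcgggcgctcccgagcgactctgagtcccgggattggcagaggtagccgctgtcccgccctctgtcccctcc
Slc1a4: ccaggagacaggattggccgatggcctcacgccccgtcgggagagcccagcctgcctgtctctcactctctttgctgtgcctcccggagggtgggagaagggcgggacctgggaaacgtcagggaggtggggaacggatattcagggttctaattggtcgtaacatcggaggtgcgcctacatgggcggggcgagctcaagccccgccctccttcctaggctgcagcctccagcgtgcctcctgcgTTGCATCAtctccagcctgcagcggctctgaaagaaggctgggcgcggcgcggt
The kB letters stood in 5.48% of all 27025 genes with a promoter in the table and in 6.09% of the tested genes. They stood in 10.6% of those at least 2-fold lower with gefitinib and in 7.62% of those at least 2-fold higher. The interferon element stood in 3.99% of all genes, 3.91% of tested genes, 14.6% of those at least 2-fold lower and 4.48% of those at least 2-fold higher. Among the lists described below it was found in 14 of 34 interferon-stimulated antiviral genes with a promoter in the table, and the kB letters in 9 of 21 NF-kB pathway genes. The SREBP letters stood in 1.44% of all genes, in 1.36% of tested genes and in 1 of 15 sterol genes. They stood in 2.69% of genes at least 2-fold higher and in 1.97% of those at least 2-fold lower. The ATF4 letters stood in 4.51% of all genes and in 8 of 25 amino acid transporter and tRNA synthetase genes. Among tested genes they stood in 2.95%, in 1.35% of those at least 2-fold higher and in 7.09% of those at least 2-fold lower, the opposite direction to Slc1a4. These are matches of letters, with no measurement of binding.

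Between 10757 and 11181 probes were detected per array on the 6 arrays (detection p-value under 0.05). Values below are log2 intensities after background correction and quantile normalization, on which 1 unit is a 2-fold difference. A difference is CpG with gefitinib minus CpG alone, given ± its standard error with n = 3 arrays a group, and "higher" or "lower" is written of genes with a Benjamini-Hochberg adjusted p under 0.05 in a limma fit over all genes. Arrays of the same group differed by 0.25 to 0.391 (root mean square over genes), with CpG replicate 2 furthest from its group, and arrays of different groups by 0.649 to 0.738. The 15 tested macrophage identity genes of 22 listed summed to 52450 to 56140 intensity units with CpG and to 43680 to 46220 with gefitinib as well. Of 26 fibroblast, endothelial and epithelial markers 4 were tested, with summed intensities of 90.48 to 154.5 and 118 to 144.4. Among 27 lymphocyte and granulocyte markers 5 were tested, and leaving out S100a8, which macrophages also make, they summed to 306.7 to 400.8 and to 342.7 to 398.4. Collagen, keratin, B-cell and T-cell genes such as Col1a1, Krt8, Ms4a1 and Cd3e were not tested because they were not detected on 3 arrays.

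Gefitinib before CpG went with lower transcripts of many cytokine, chemokine and interferon-stimulated genes, and with higher transcripts of many sterol synthesis, lysosome, DNA replication and mitosis genes. Of the 8101 genes 3019 (37.3%) differed, 1786 higher (22.0%) and 1233 lower (15.2%). Counts in the gene lists below are to be read beside these shares. At least 2-fold differences numbered 320 lower (3.95%) and 273 higher (3.37%), and 50 genes were lower by 3 log2 units or more against 1 gene higher by as much. Most differences were smaller in both directions, with 596 higher and 387 lower genes below 0.5, and 917 and 526 between 0.5 and 1. The 3 arrays of one group did not overlap the 3 of the other in 3749 genes (46.3%). The median difference of all genes was 0.06.

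**Figure D1:**
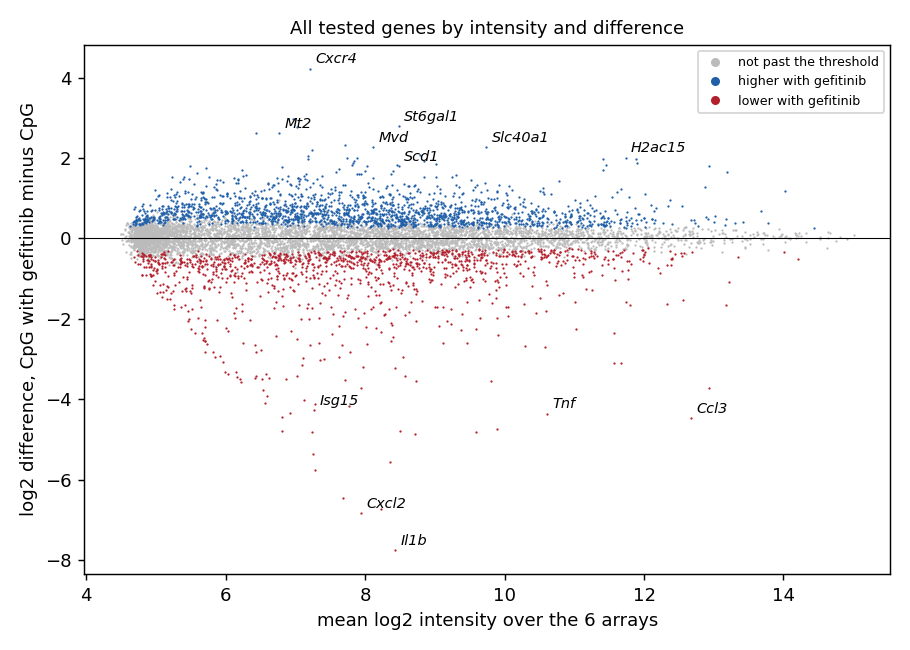
Difference between CpG with gefitinib and CpG alone (log2, vertical) against the mean log2 intensity over the 6 arrays (horizontal), 1 point per tested gene, coloured where the adjusted p was under 0.05. The lower genes reach down to Il1b and Cxcl2, while Cxcr4 is the 1 gene more than 3 units higher.

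Il1b, which encodes the fever-inducing cytokine interleukin-1 beta, had the lowest difference of all genes. Its values were 12.74, 11.98 and 12.20 on CpG arrays 1 to 3 and 4.68, 4.43 and 4.54 with gefitinib, where its probe was not detected on any array. The groups lay far apart, and Il1b was lower by a factor of at least 168 (adjusted p = 1.32e-12). "At least" is written of such genes because an undetected probe gives only a bound, here taken against the higher of the probe's own value and the lowest detected signal of each array. Where only some arrays of the dimmer group detected a gene, the fitted difference is given. Of the lower genes named in the text, Ccl2, Cxcl10, Nod2, Oasl2, Slc39a10, Tap1 and Upp1 were detected on 1 of 3 arrays with gefitinib and Cmpk2, Id1, Rsad2, Slc31a2 and Tnfaip3 on 2 of 3. Of the higher genes, Cxcr4 and Sc5d were detected on 1 of 3 CpG arrays and Asb10, Deptor, Rps6ka5 and Ulk2 on 2 of 3. Cxcl2, a neutrophil attractant whose promoter is printed above, read 11.29, 11.31 and 11.50 with CpG and 4.50, 4.44 and 4.64 with gefitinib, at least 87.8-fold lower (adjusted p = 7.43e-14). Its values with gefitinib sat beside those of untreated cells, 4.53, 4.59 and 4.53. Cxcl2 was not detected in untreated cells either, so that both are background readings and do not compare its levels.

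The 15 largest decreases held mostly secreted signals and their controls. The monocyte attractants Ccl2 (-6.74 ± 0.23, adjusted p = 1.6e-10) and Ccl7 (at least 64.4-fold), the granulocyte growth factor Csf3 (at least 38.1-fold), the acute-phase protein gene Saa3 (-5.57 ± 0.25) and the interleukin-1 antagonist Il1rn (-4.78 ± 0.18) were among them. Another kept probe of Csf3 was not past the threshold (-0.20, adjusted p = 0.478). Phlda1 (at least 32.8-fold), the cytokine signalling inhibitor Socs3 (-4.86 ± 0.17), the NF-kB regulator Nfkbiz and the interferon-inducible genes Oasl2 (-4.83 ± 0.11), Usp18 (-4.74 ± 0.12) and Ifi202b (at least 17.3-fold) were others. Il1a, another interleukin-1 gene, was at least 19.7-fold lower. Ccl3, a macrophage inflammatory protein gene, completed the 15 (-4.47 ± 0.16), with values of 15.05, 14.89 and 14.81 on the CpG arrays and 10.83, 10.24 and 10.25 with gefitinib. It remained detected on all arrays with gefitinib.

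**Figure D2:**
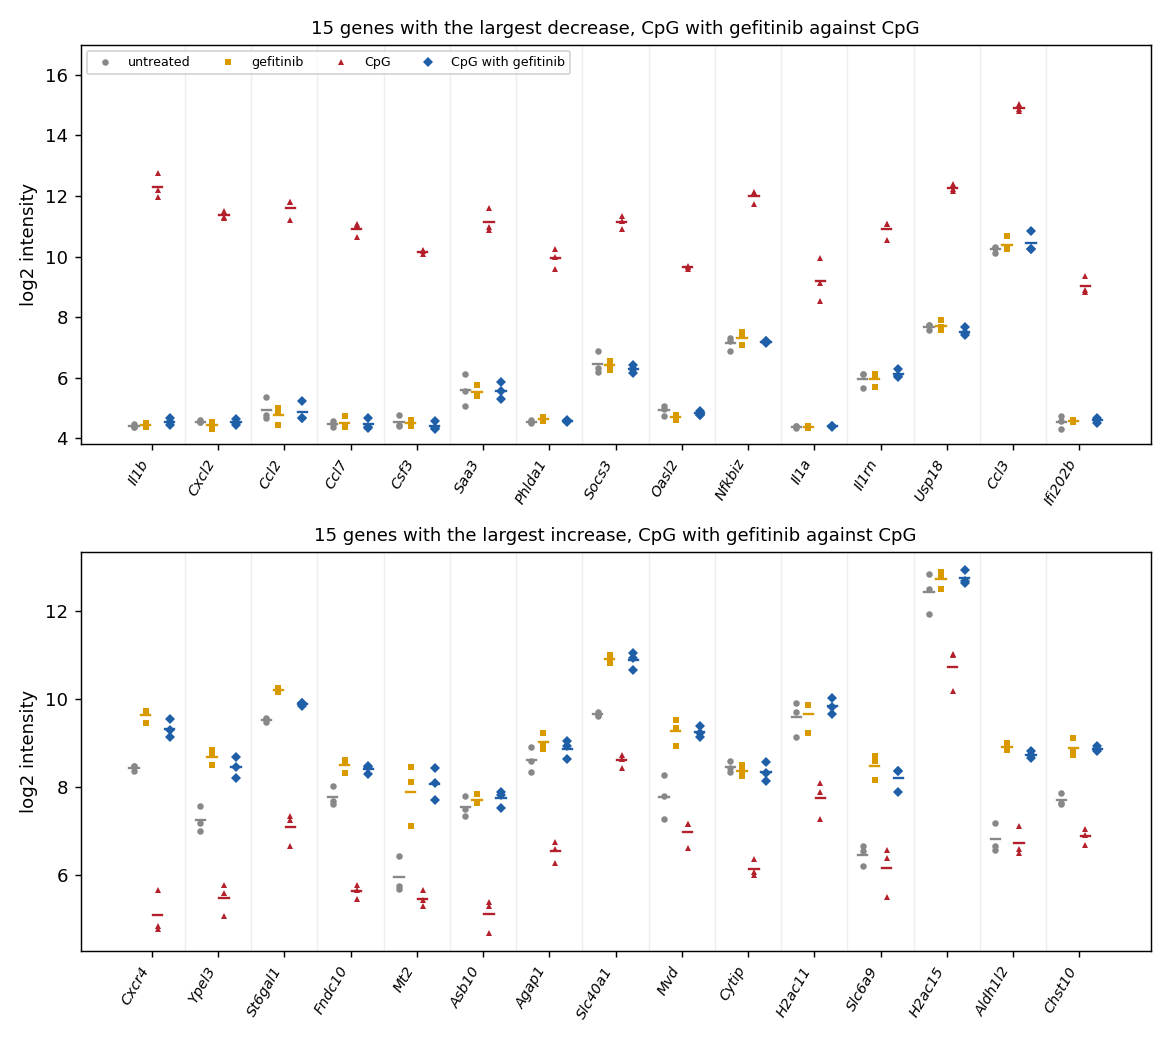
Log2 intensity on each of the 12 arrays for the 15 genes with the largest decrease (top) and the 15 with the largest increase (bottom) in CpG with gefitinib against CpG. Points are arrays and bars are group means, and in all 30 genes the 3 red CpG arrays stand apart from the 3 blue arrays of CpG with gefitinib.

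Among Toll-like receptors and their adaptors, changes were modest beside those of the cytokines. Tlr9, the receptor gene for CpG itself, was not analysed. Of 33 tested Toll-like receptor, adaptor and trafficking genes 12 were lower and 4 higher, with a median of -0.24. Irak3, an inhibitor of IRAK signalling, read 10.41, 10.16 and 10.34 with CpG and 8.33, 7.91 and 8.26 with gefitinib (-2.14 ± 0.15, adjusted p = 1.73e-07). The CpG arrays were all above the others, by 1.84 at the nearest. The kinase gene Irak2 (-1.70 ± 0.17), the co-receptor Cd14 (-1.07 ± 0.09) and the lipopeptide receptor Tlr2 (-1.03 ± 0.15) were also lower. Myd88, the adaptor itself, was lower by a smaller step (-0.46 ± 0.12, adjusted p = 0.00949), with 11.71, 11.44 and 11.85 on CpG arrays and 11.28, 11.04 and 11.30 with gefitinib. Unc93b1, which escorts nucleic acid receptors to endosomes, was not past the threshold (-0.21 ± 0.17, adjusted p = 0.351). Lgmn, a lysosomal protease that processes endosomal receptors (0.61 ± 0.14, not past the threshold under median scaling), and Cnpy3, a receptor chaperone (0.58 ± 0.12), were higher.

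NF-kB is held in check by inhibitors that it induces itself, and some of those inhibitors were among the lower members of its list. Of 25 tested subunit, kinase and inhibitor genes 14 were lower and 2 higher, with a median of -0.32 against 0.06 over all genes. Nfkbiz, a nuclear IkB protein, read 12.11, 12.12 and 11.74 with CpG and 7.20, 7.15 and 7.21 with gefitinib (-4.81 ± 0.15, adjusted p = 6.14e-11). The nearest arrays of the 2 groups were 4.54 apart, and arrays within a group at most 0.38. The classical inhibitor Nfkbia (-2.40 ± 0.19), the ubiquitin-editing enzyme A20 (Tnfaip3, -2.66 ± 0.24), the adaptor Traf1 (-3.49 ± 0.20) and the RNase Zc3h12a (-3.19 ± 0.18) were all lower. Birc2, a ubiquitin ligase, was higher (0.64 ± 0.11), although 1 of its 3 probes was not past the threshold (0.18, adjusted p = 0.543). The deubiquitinase gene Cyld was higher in the fit (0.43 ± 0.12, adjusted p = 0.0107) but not without replicate 3 of CpG with gefitinib.

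The MAP kinase list was split, and its phosphatases were on the lower side. Of 29 tested genes 10 were lower and 6 higher (median -0.11). Dusp2, a nuclear phosphatase of ERK and p38, read 8.64, 8.58 and 8.37 with CpG and 5.75, 6.03 and 5.86 with gefitinib (-2.65 ± 0.12, adjusted p = 1.78e-09). Dusp4 (-2.20 ± 0.14) and Dusp16 (-2.12 ± 0.12), 2 other MAP kinase phosphatases, and Dusp6, which acts on ERK (-0.83 ± 0.12, adjusted p = 0.000108), were lower too. Map3k8, a kinase that links Toll-like receptors to ERK, was lower (-1.22 ± 0.13), while the p38 kinase kinase gene Map2k6 was at least 1.95-fold higher and the stress kinase gene Rps6ka5 was higher by 1.00 ± 0.14. Map2k1 was lower in the fit (-1.22 ± 0.37, adjusted p = 0.0204), but not without CpG replicate 2, without replicate 1 or 3 of CpG with gefitinib, or with no filter on low values.

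Egfr, the receptor that gefitinib is known to inhibit, was not detected by any of its 4 probes on the 12 arrays. Of 10 tested family, ligand, sheddase and adaptor genes 6 were lower and 1 higher, with a median of -0.52, or -0.34 with undetected genes at their bounds. Errfi1, a feedback inhibitor of the receptor, read 9.34, 9.08 and 9.24 with CpG and 7.41, 7.48 and 7.51 with gefitinib (-1.75 ± 0.11, adjusted p = 8.56e-08). The groups were 1.57 apart at their nearest arrays. Adam17, the protease that frees EGF receptor ligands and TNF from the membrane (-0.65 ± 0.12), and Rhbdf2, which carries Adam17 to the surface (-1.23 ± 0.10), were lower. Among Src, Syk and Tec kinases and related tyrosine phosphatases, 2 of 19 tested genes were higher and 3 lower, together a smaller share than the 37.3% of all genes. Ptk2b, a calcium-regulated focal adhesion kinase, had the largest decrease of those past the threshold (-0.69 ± 0.15).

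PI3 kinase and mTOR genes leaned the other way, with 11 of 28 higher and 2 lower (median 0.30). Sesn1, a p53-linked inhibitor of mTORC1, read 6.89, 6.58 and 7.16 with CpG and 8.88, 8.91 and 8.64 with gefitinib (1.93 ± 0.14, adjusted p = 1.75e-07). Every array with gefitinib was at least 1.48 above every CpG array. Eif4ebp1, which holds back cap-dependent translation, was higher as well (0.88 ± 0.14). Deptor, an inhibitor within the mTOR complexes, was higher by its brighter probe (1.05 ± 0.17) and not past the threshold by the other (-0.21, adjusted p = 0.205).

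Immediate-early transcription factors were lower more often than higher, and many were not past the threshold. Of 30 tested AP-1, ATF, EGR, NR4A, KLF and other immediate-early genes 11 were lower and 6 higher. Fos, a partner of Jun proteins in AP-1, read 9.19, 9.28 and 9.20 with CpG and 7.45, 7.07 and 7.45 with gefitinib (-1.90 ± 0.17, adjusted p = 1.61e-06). Junb (-1.76 ± 0.13) and Atf3 (-1.11 ± 0.14) were lower, and Fosl1 was at least 3.7-fold lower. The lowest member of the list, Ier3 (-3.11 ± 0.16), is an immediate-early response gene outside these transcription factor families. On the higher side stood the repressor Bhlhe40, with 6.91, 6.86 and 6.94 on CpG arrays and 8.59, 8.71 and 8.88 with gefitinib (1.82 ± 0.13, adjusted p = 2.23e-07), and the Krüppel-like factors Klf9 (1.93 ± 0.27) and Klf13 (1.32 ± 0.18). Bhlhe40 was alike on the CpG arrays, within 0.08, and its groups did not overlap.

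Of 16 tested interferon regulatory and interferon-linked factors 13 were lower and 0 higher (median -0.82, or -0.71 with undetected genes at their bounds). Irf7, the amplifier of type I interferon genes, read 7.74, 7.96 and 7.98 with CpG and was not detected with gefitinib (4.61, 4.38 and 4.30), at least 7.88-fold lower (adjusted p = 3.91e-10). Irf9, the DNA-binding part of the interferon-activated ISGF3 complex, was lower (-2.32 ± 0.10). Its partner Stat2 was lower too (-1.12 ± 0.14), as was Parp14, an interferon-inducible ADP-ribosyltransferase (-3.24 ± 0.13). The 3 that were not past the threshold were Irf1 (0.02 ± 0.12), Irf2 (-0.05 ± 0.13) and Irf3 (0.29 ± 0.13), named after their values were seen. Among myeloid lineage factors 7 of 22 were lower and 2 higher, with the differentiation inhibitor Id1 (-2.82 ± 0.29), Ets2 (-1.66 ± 0.11) and the macrophage master factor Spi1 (-0.86 ± 0.15) lower. Nfatc1, the master factor of osteoclasts, was higher (1.34 ± 0.13) by 2 of its 4 probes.

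Clock and chromatin genes were also among those that differed. Of 12 tested circadian genes 6 were lower, including the activator Arntl (-0.98 ± 0.14), and 3 higher, including the output factor Dbp (1.28 ± 0.14). The H3K27 demethylase gene Kdm6b was the lowest of 46 chromatin-modifying enzymes (-1.98 ± 0.16, adjusted p = 8.96e-07), of which 7 were lower and 15 higher. Hdac5, a histone deacetylase gene, was higher by its brighter probes (1.16 ± 0.17), with 1 of 3 not past the threshold (0.50, adjusted p = 0.103).

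Cytokine, chemokine and TNF family genes held the deepest decreases. Many of their members, and some of the interferon-stimulated and effector genes below, passed the detection filter through the CpG arrays alone, so that the counts describe the members measured and not the whole families. Of 25 tested cytokine and growth factor genes 15 were lower and 6 higher, with a median of -1.19, or -1.18 with undetected genes at their bounds. The 14 members detected on all 12 arrays had 6 lower and 6 higher, with a median of 0.01. Il6, the acute-phase cytokine, read 7.78, 7.64 and 7.57 with CpG and was not detected with gefitinib (4.26, 4.33 and 4.41), at least 6.73-fold lower (adjusted p = 5.59e-11). Ifnb1, which encodes interferon beta, went from 7.67, 7.78 and 7.98 to 4.37, 4.65 and 4.45, at least 7.46-fold lower (adjusted p = 2.57e-10). Both genes were alike on the 3 CpG arrays and at the background of the array with gefitinib.

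Growth factors were among the members that went the other way. The vasoconstrictor gene Edn1 was at least 11.4-fold lower, but Pdgfa, a platelet-derived growth factor (1.61 ± 0.18), Vegfb (0.77 ± 0.13) and Grn, the progranulin gene (0.68 ± 0.11), were higher. The leukocyte attractant Il16 (1.39 ± 0.24) and Il15, which sustains natural killer cells (1.13 ± 0.19), were higher as well. Of 12 tested chemokine genes 10 were lower and 0 higher, with a median of -3.65, or -3.55 with bounds. Ccl11 (0.40 ± 0.16, adjusted p = 0.0629) and Ccl25 (-0.21 ± 0.15, adjusted p = 0.304) were the 2 not past the threshold. Of the 5 chemokine genes detected on all 12 arrays 4 were lower, with a median of -3.11. Cxcl10, an interferon-inducible T-cell attractant, read 8.82, 9.01 and 9.48 with CpG and 5.11, 4.39 and 4.75 with gefitinib, where it was detected on 1 array (-4.35 ± 0.21, adjusted p = 3.06e-09).

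Tumour necrosis factor, encoded by Tnf, remained well detected in both groups. Its values were 12.62, 12.98 and 12.77 with CpG and 8.68, 8.10 and 8.50 with gefitinib (-4.36 ± 0.15, adjusted p = 1.23e-10). The nearest arrays of the 2 groups were 3.93 apart, and untreated cells read 8.61, 8.54 and 8.70. Of 18 tested TNF superfamily ligands and receptors 11 were lower and 1 higher (median -0.63), with the costimulatory receptor Cd40 at least 13-fold lower, the death receptor Fas at least 9.37-fold lower and the lymphotoxin gene Ltb lower (-2.46 ± 0.23). Among cytokine receptor, JAK-STAT and SOCS genes 9 of 31 were lower and 5 higher, a share below that of all genes for the higher ones. Socs3, the lowest, went from 11.35, 10.93 and 11.16 to 6.16, 6.29 and 6.42, while the TGF-beta receptor gene Tgfbr1 was higher (1.33 ± 0.11).

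Interferon-stimulated antiviral genes were lower almost without exception. Of 45 tested, 43 were lower and 0 higher, with a median of -1.85, or -1.81 with bounds. Of the 28 detected on all 12 arrays 26 were lower (median -1.72). The exceptions were Ifi27l2a (0.12 ± 0.17, adjusted p = 0.608) and the DNA sensor Cgas (-0.12 ± 0.20, adjusted p = 0.679), named after their values were seen. Isg15, a ubiquitin-like modifier whose promoter is printed above, read 9.38, 9.39 and 9.46 with CpG and 4.99, 5.01 and 5.38 with gefitinib (-4.28 ± 0.16, adjusted p = 3.91e-10). Rsad2, the gene of the antiviral enzyme viperin, read 9.23, 9.12 and 9.70 and 4.85, 5.09 and 5.74 (-4.12 ± 0.24). The arrays with gefitinib overlapped the range of the untreated arrays, which for Isg15 were 4.99, 5.13 and 5.29. The lowest detected signals on these arrays were 4.885 to 4.957, so that Isg15 was near the background in both groups. All 9 of 9 tested interferon-inducible GTPase, Schlafen and HIN-200 genes were lower (median -2.30, or -2.73 for the 6 detected on all 12 arrays), including Igtp (-3.14 ± 0.12), Slfn2 (-2.95 ± 0.18) and Irgm2 (-2.51 ± 0.13). Near-identical copies exist in these gene families, and their probes may read more than 1 member. Of 25 tested antigen presentation genes 7 were lower and 0 higher, with the peptide transporter Tap1 (-1.22 ± 0.16) and the costimulatory ligand Cd80 (-1.16 ± 0.16) at the low end.

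Effector genes that macrophages use against microbes numbered 17 lower and 3 higher of 28 tested (median -0.58, or -0.43 with bounds), and 10 lower and 3 higher of the 20 detected on all 12 arrays (median -0.43). Saa3 read 11.59, 10.87 and 10.98 with CpG and 5.87, 5.29 and 5.57 with gefitinib. Lcn2, which starves bacteria of iron, was at least 7.01-fold lower, and the formyl peptide receptor Fpr2 at least 4.99-fold lower. Ptgs2, the cyclooxygenase-2 gene, varied on the CpG arrays (6.59, 7.67 and 5.98) and was not detected with gefitinib (4.33, 4.44 and 4.37), at least 3.57-fold lower (adjusted p = 2.88e-05). The leukotriene synthase gene Ltc4s was higher (1.54 ± 0.13). Nos2, the inducible nitric oxide synthase gene, was detected on 2 arrays, both of CpG alone, and was not tested.

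The inflammatory caspase gene Casp4 read 9.22, 9.40 and 9.42 with CpG and 6.69, 6.66 and 6.79 with gefitinib (-2.64 ± 0.12, adjusted p = 3.16e-09). Its groups were 2.43 apart at their nearest arrays. Over the whole inflammasome and caspase list 6 of 20 were lower and 4 higher, with the peptidoglycan sensor Nod2 (-1.16 ± 0.19) and the necroptosis effector Mlkl (-1.10 ± 0.11) among the lower. Of 22 BCL2 family and apoptosis genes 6 were lower (27.3%) and 5 higher (22.7%), beside 15.2% and 22.0% of all genes. Survival genes Bcl2a1d (at least 4.22-fold) and Bcl2l1 (-1.30 ± 0.15) were lower, and so was the death-promoting gene Bcl2l11 (-1.93 ± 0.14). Bnip3l, a mitophagy receptor, was higher (1.10 ± 0.11). Bbc3, a p53-induced death gene, was higher by its brightest probe (1.52 ± 0.20), while its 2 other probes were not past the threshold (0.21 and 0.30).

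Surface receptors and proteases were described next. Cxcr4, the receptor for the homing chemokine CXCL12, had the largest increase of all genes. It read 4.84, 5.66 and 4.79 with CpG, where 1 of 3 arrays detected it, and 9.13, 9.53 and 9.29 with gefitinib (4.22 ± 0.20, adjusted p = 2.61e-09). The array that detected it was CpG replicate 2, still 3.47 below the nearest array with gefitinib, and untreated cells read 8.47, 8.37 and 8.48. Of 28 tested chemoattractant, lipid and metabolite receptors 6 were higher (21.4%, near the 22.0% of all genes) and 7 lower. The lower share was above the 15.2% of all genes, and the median of the list was -0.1. The niacin and ketone body receptor Hcar2 went from 9.92, 9.65 and 9.99 to 6.03, 5.17 and 5.83 (-4.18 ± 0.25), and the fatty acid receptor Gpr84 was lower (-2.26 ± 0.21).

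Of 31 integrin and adhesion genes 14 were lower and 3 higher, with the hyaluronan receptor Cd44 (-1.75 ± 0.11), the fibronectin receptor chain Itga5 (-1.72 ± 0.17) and the "do not eat me" signal Cd47 (-1.14 ± 0.12) lower. Among Fc, lectin and Siglec receptors 12 of 35 were lower and 7 higher. Antibody receptors parted: Fcgr3, the low-affinity receptor, was higher (1.84 ± 0.15, adjusted p = 9.03e-07), whereas Fcgr1 (-1.18 ± 0.21) and Fcgr4 (-1.35 ± 0.18) were lower. Fcgr3 read 7.95, 8.01 and 8.35 with CpG and 10.11, 9.88 and 9.83 with gefitinib, with no overlap. The sialic acid receptor Siglec1 was at least 5.3-fold lower, and Trem2, a lipid-sensing receptor of macrophages, was higher (1.06 ± 0.14). Plaur, the urokinase receptor gene, was the lowest of the complement and coagulation genes (-3.71 ± 0.15). Of 13 tested there, 4 were lower (30.8%) and 3 higher (23.1%), the latter near the 22.0% of all genes. Of 18 matrix proteases, cathepsins and their inhibitors 8 were lower and 2 higher. The brighter probe of the collagenase gene Mmp13 was at least 2.35-fold lower (0.11 by the other, adjusted p = 0.698), and the gelatinase Mmp9 was lower (-1.22 ± 0.21).

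Several lists had 0 members past the threshold in one direction. At an unadjusted limma p under 0.05, 1 member each of the interferon regulatory factor, chemokine and antigen presentation lists was on the higher side, against 0 of the interferon-stimulated antiviral genes and 0 of the interferon-inducible GTPase list. On the lower side the number was 0 for sterol synthesis, 0 for fatty acid oxidation, 0 for the respiratory chain and 1 for cytosolic ribosomal proteins, all described below.

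**Figure D3:**
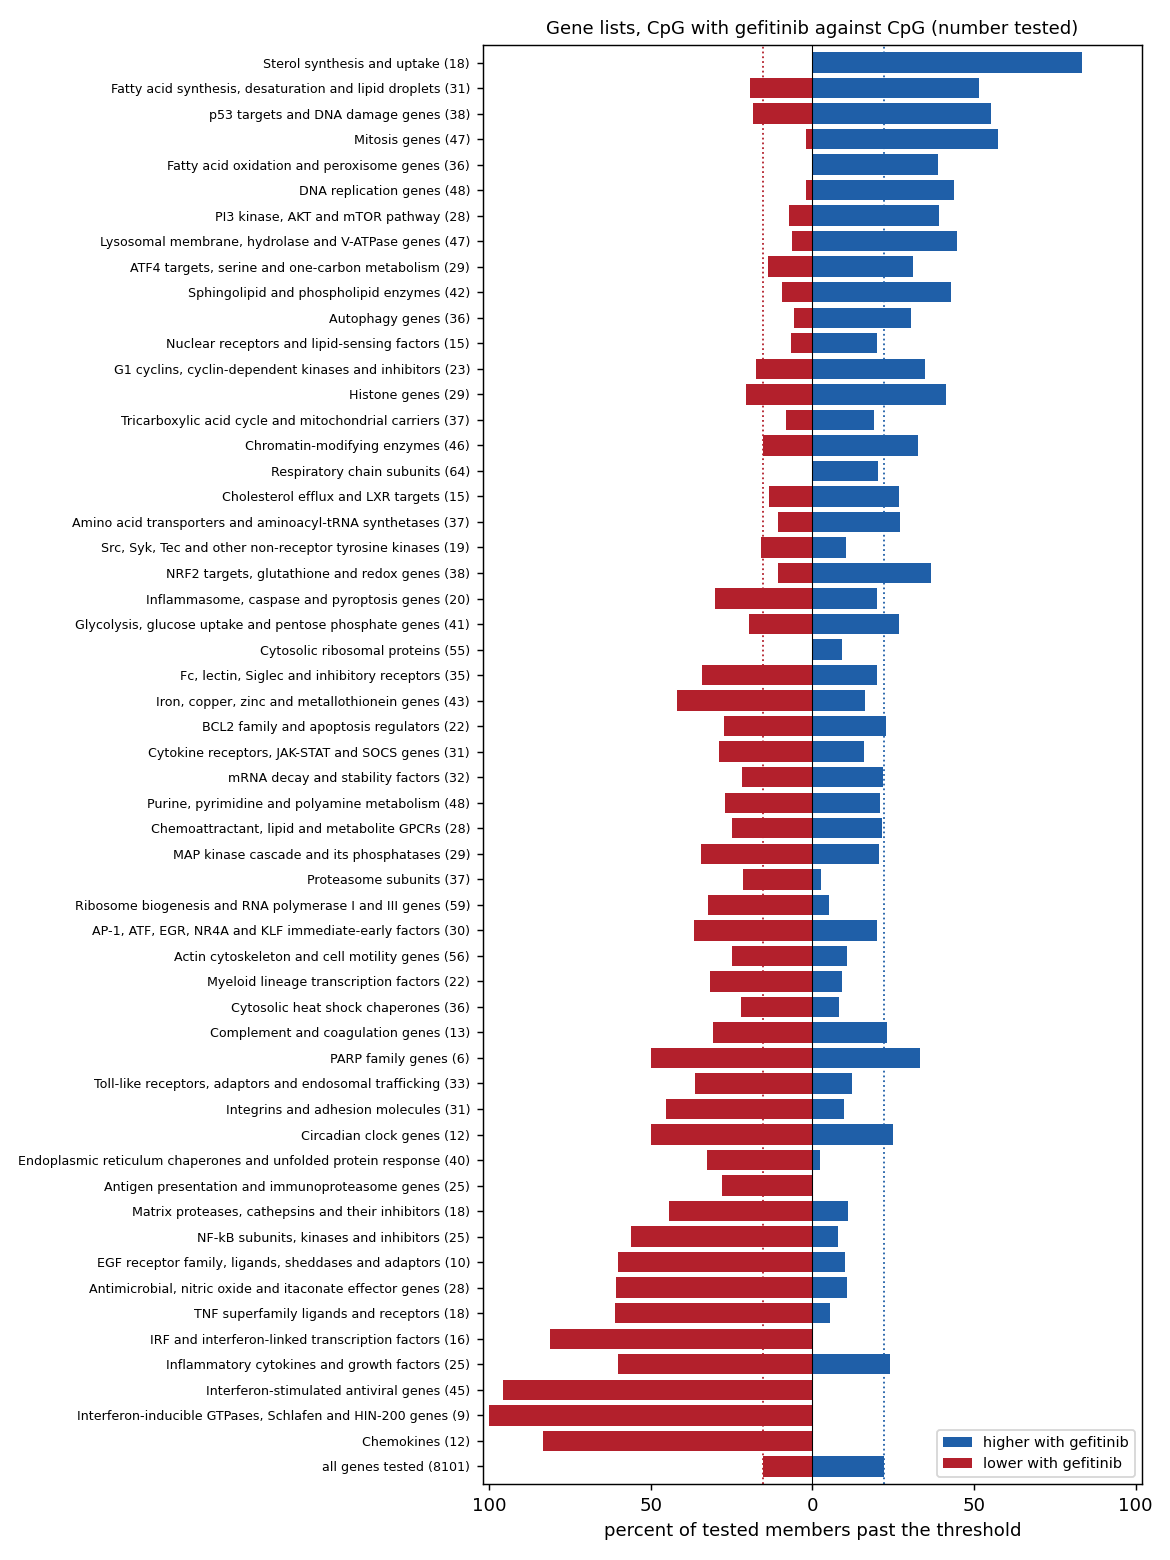
Percent of tested members higher (blue, right) and lower (red, left) with gefitinib in each gene list, with the number tested in brackets. Dotted lines mark the 22.0% higher and 15.2% lower of all genes, chemokines and interferon-inducible genes extend furthest left, and sterol synthesis genes furthest right.

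Sterol synthesis genes were higher together. Of 18 tested sterol synthesis and uptake genes 15 were higher and 0 lower, with a median of 1.09. Hmgcs1, which makes HMG-CoA and whose promoter is printed above, read 10.09, 10.78 and 10.77 with CpG and 12.51, 12.22 and 12.40 with gefitinib (1.84 ± 0.22, adjusted p = 2.71e-05). CpG replicate 1 was the lowest array, and the groups were 1.45 apart at their nearest. Mvd, mevalonate diphosphate decarboxylase, went from 6.62, 7.15 and 7.16 to 9.37, 9.13 and 9.23 (2.27 ± 0.23). The sterol enzymes Sc5d (1.39 ± 0.29) and Nsdhl (1.32 ± 0.12) and the sterol carrier Stard4 (1.72 ± 0.19) were also higher. The remaining 3, Idi1 (0.35 ± 0.16), Insig1 (0.32 ± 0.24) and Dhdds (0.05 ± 0.16), were not past the threshold.

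Of 31 fatty acid synthesis and lipid droplet genes 16 were higher and 6 lower (median 0.50). Scd1, the desaturase that makes oleic acid, read 7.49, 7.75 and 7.51 with CpG and 9.54, 9.29 and 9.32 with gefitinib (1.80 ± 0.11, adjusted p = 6.48e-08), 1.54 apart at the nearest arrays. Scd2 (1.12 ± 0.14), the acetate-activating enzyme Acss2 (1.35 ± 0.14) and the elongase Elovl6 (1.31 ± 0.11) were higher. The lower members included the lipid droplet proteins Hilpda (-1.07 ± 0.15) and Plin2 (-0.60 ± 0.11), the lipase cofactor Abhd5 (-0.97 ± 0.13) and lipoprotein lipase Lpl (-0.80 ± 0.10). Fatty acid oxidation and peroxisome genes numbered 14 higher and 0 lower of 36 (median 0.35), led by the peroxisomal genes Acox3 (1.12 ± 0.14) and Acaa1a (1.02 ± 0.13).

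Membrane lipid and lysosome genes followed the same direction. Of 42 sphingolipid and phospholipid enzymes 18 were higher and 4 lower, with Kdsr, an early enzyme of ceramide synthesis (1.98 ± 0.18), and Pcyt2, of phosphatidylethanolamine synthesis (1.06 ± 0.16), higher. The ceramide synthase gene Cers6 was lower by its brighter probe (-1.42 ± 0.16) and near 0 by the other (0.01, adjusted p = 0.989). Of 47 lysosomal genes 21 were higher and 3 lower (median 0.30). Psap, the precursor of the saposins that help degrade sphingolipids, read 10.99, 11.06 and 11.11 with CpG and 12.38, 12.27 and 12.21 with gefitinib (1.23 ± 0.11, adjusted p = 2.51e-06). The cystine exporter Ctns (1.60 ± 0.12), the glycoprotein gene Gpnmb (1.29 ± 0.14) and the acid lipase gene Lipa (1.14 ± 0.12) were higher too. Autophagy genes were higher in 11 of 36 cases, with Wdr45 (1.48 ± 0.18) and the initiating kinase Ulk2 (0.98 ± 0.14) in front, and lower in 2, one of them the membrane protein Vmp1 (-1.09 ± 0.10).

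**Figure D4:**
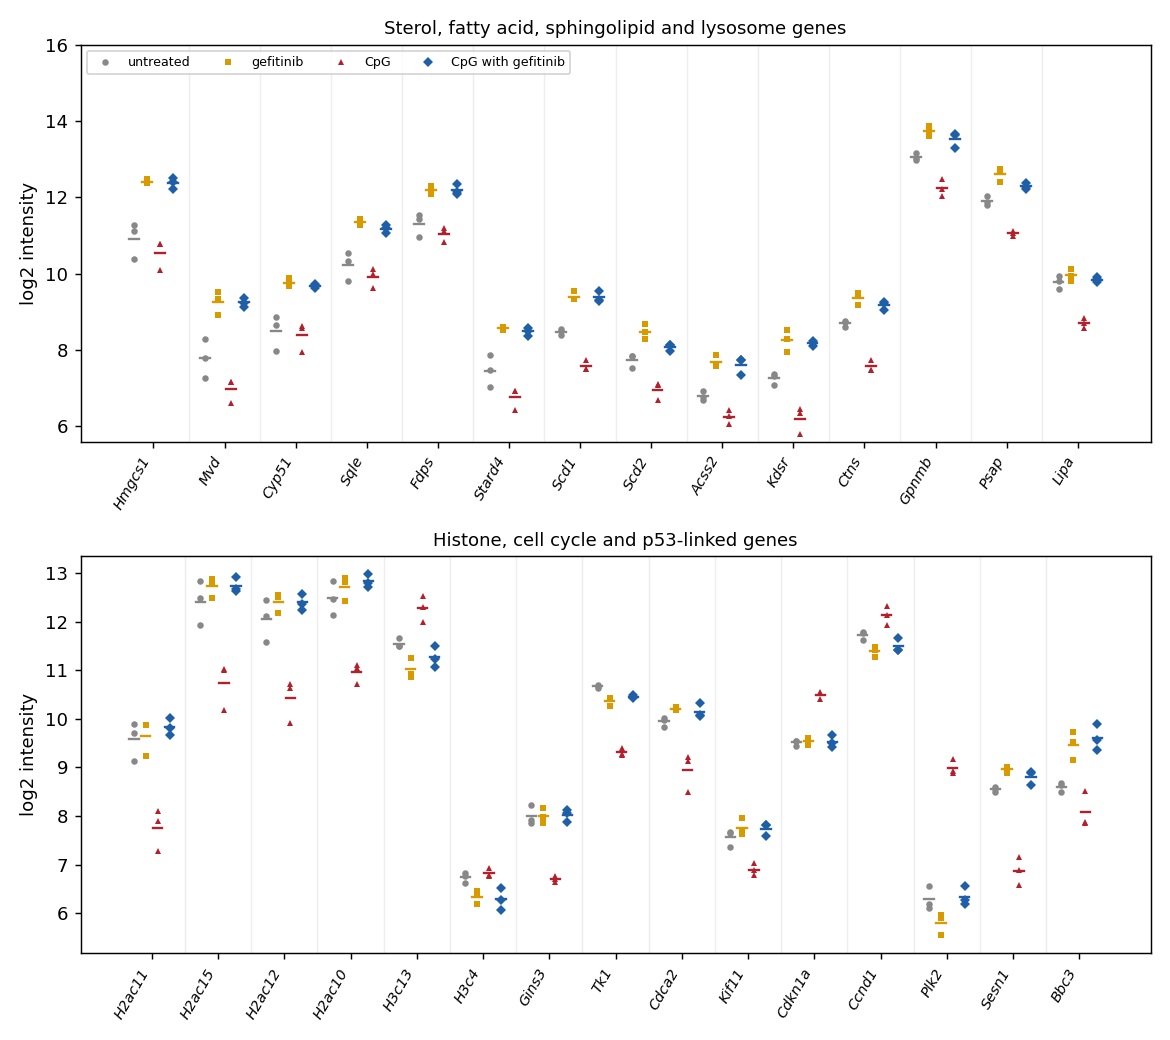
Log2 intensity on each of the 12 arrays for lipid and lysosome genes (top) and for histone, cell cycle and p53-linked genes (bottom), with bars at group means. The blue arrays of CpG with gefitinib lie above the red CpG arrays in all 14 genes of the top panel, and in the bottom panel H3c13, H3c4, Cdkn1a, Ccnd1 and Plk2 run the other way.

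Glucose metabolism was split near the background shares. Of 41 tested genes 11 were higher and 8 lower. Slc2a1, the main glucose transporter, read 11.87, 11.60 and 11.92 with CpG and 10.47, 10.50 and 10.63 with gefitinib (-1.26 ± 0.11, adjusted p = 1.66e-06). The first enzyme of glycolysis, Hk2 (-0.95 ± 0.10), and the hypoxia factor Hif1a (-0.96 ± 0.14) were lower as well, while the muscle-type phosphofructokinase Pfkm was higher (0.96 ± 0.10). Of 64 respiratory chain subunits 13 were higher (20.3%, near the 22.0% of all genes) and 0 lower. Their median of 0.13 became -0.03 when arrays were scaled by their medians. Idh1, a source of cytosolic NADPH, led the citric acid cycle and carrier list (1.18 ± 0.12), and the mitochondrial ATP carrier Slc25a25 was its lowest member (-1.42 ± 0.16).

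Amino acid supply genes held some of the largest increases. Slc6a9, a glycine transporter, read 6.57, 5.51 and 6.40 with CpG and 7.89, 8.37 and 8.37 with gefitinib (2.05 ± 0.25, adjusted p = 2.74e-05). CpG replicate 2 was the lowest, and the groups did not overlap. Slc1a4, a neutral amino acid transporter whose promoter is printed above, was higher by 1.52 ± 0.16, and the mitochondrial folate enzyme Aldh1l2 by 2.00 ± 0.18. Over the transporter and tRNA synthetase list 10 of 37 were higher (27.0%) and 4 lower (10.8%). Over ATF4 targets and one-carbon genes 9 of 29 were higher (31.0%) and 4 lower (13.8%). Among all genes the shares were 22.0% and 15.2%. Phgdh, the first enzyme of serine synthesis (0.81 ± 0.14), and the ATF4 partner Atf5 (1.21 ± 0.19) were higher. Slc15a3, a lysosomal peptide transporter that innate signals induce, was lower (-2.67 ± 0.11), and so was the stress phosphatase subunit Ppp1r15a (-1.37 ± 0.17).

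Nucleotide and polyamine genes had their largest differences on the lower side. Upp1, which splits uridine, went from 8.48, 7.62 and 8.37 with CpG to 4.75, 4.90 and 4.41 with gefitinib, where 1 of 3 arrays detected it (-3.47 ± 0.20), and Cmpk2, a mitochondrial nucleotide kinase, was lower (-4.03 ± 0.19). Odc1, the first enzyme of polyamine synthesis, read 13.32, 13.12 and 13.01 and 11.54, 11.54 and 11.48 (-1.64 ± 0.10, adjusted p = 4.14e-08). In all, 13 of 48 were lower and 10 higher, among the latter thymidine kinase, Tk1 (1.14 ± 0.09).

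Of 43 metal-handling genes 18 were lower and 7 higher, yet 2 of its members were among the 15 largest increases. Mt2, a zinc-binding metallothionein, read 5.66, 5.43 and 5.30 with CpG and 7.70, 8.44 and 8.10 with gefitinib (2.61 ± 0.30, adjusted p = 2.03e-05), and Mt1 was higher by 1.17 ± 0.11. Slc40a1, the iron exporter ferroportin, read 8.64, 8.43 and 8.73 and 10.65, 10.92 and 11.04 (2.27 ± 0.12, adjusted p = 8.86e-09). Every array with gefitinib was at least 2.04 above the CpG arrays for Mt2 and 1.92 for Slc40a1. The zinc importer Slc39a10 (-1.31 ± 0.19), the copper transporter family gene Slc31a2 (-1.98 ± 0.25) and the iron importer Slc11a2 (-0.98 ± 0.14) were lower. Of 38 NRF2 target, glutathione and redox genes 14 were higher, as the lipid peroxide reductase Gpx4 (0.74 ± 0.17), and 4 lower, as heme oxygenase Hmox1 (-1.19 ± 0.26).

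Protein-folding and ribosome-building genes were lower more often than higher. Of 40 endoplasmic reticulum chaperone and unfolded protein response genes 13 were lower and 1 higher (median -0.27). Hspa5, the chaperone BiP, varied on the CpG arrays (8.36, 9.14 and 7.89) and read 7.04, 7.21 and 6.92 with gefitinib (-1.41 ± 0.29, adjusted p = 0.00185), without overlap. The co-chaperone Dnajb9 (-1.31 ± 0.14) was lower. Ribosome biogenesis and RNA polymerase I and III genes numbered 19 lower and 3 higher of 59 (median -0.14), including the processing factor Tsr1 (-1.28 ± 0.31), the methyltransferase Nop2 (-0.90 ± 0.15) and the polymerase III subunit Polr3d (-0.99 ± 0.15). Cytosolic ribosomal proteins were higher in 5 of 55 cases, well under the 22.0% of all genes, and their median of 0.06 became -0.14 under median scaling. Rpl22 stood out among them (1.28 ± 0.12).

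Among 36 heat shock chaperones 8 were lower and 3 higher. Hsp90aa1, the inducible HSP90 gene, was the lowest in the fit (-0.86 ± 0.30, adjusted p = 0.0358), but it was not past the threshold with a replicate block (adjusted p = 0.0519), under median scaling, with no filter on low values, or without CpG replicate 2 or any single array with gefitinib. Proteasome subunits numbered 8 lower and 1 higher of 37. Psmd12 was one of them (-0.62 ± 0.11). Among mRNA decay factors Zfp36, the tristetraprolin gene whose product destroys cytokine mRNAs, read 10.64, 10.92 and 10.71 with CpG and 8.23, 8.10 and 8.15 with gefitinib (-2.60 ± 0.10, adjusted p = 6.32e-10), and the deadenylation adaptor gene Tob1 was higher (1.35 ± 0.11).

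DNA replication and mitosis genes were far more often higher than lower with gefitinib. Of 48 tested replication genes 21 were higher and 1 lower (median 0.32), and of 47 mitosis genes 27 were higher and 1 lower (median 0.40). Gins3, a subunit of the replicative helicase, read 6.69, 6.65 and 6.76 with CpG and 8.06, 8.12 and 7.88 with gefitinib (1.32 ± 0.12, adjusted p = 2.67e-06). The CpG arrays lay within 0.11 of each other and 1.12 below the nearest array with gefitinib. Cdca2 (1.20 ± 0.16), the centromere protein gene Cenpm (1.08 ± 0.11), the cohesin regulator Cdca5 (1.04 ± 0.11) and the transcription factor E2f2 (1.02 ± 0.27) were higher. The exceptions were E2f3 (-1.12 ± 0.18) and the ubiquitin-conjugating enzyme gene Ube2s (-0.77 ± 0.18).

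Regulators of the first phase of the cycle were mixed. Of 23 tested 8 were higher and 4 lower. Cdkn1a, the gene of the cell cycle inhibitor p21, read 10.56, 10.52 and 10.41 with CpG and 9.42, 9.51 and 9.66 with gefitinib (-0.97 ± 0.10, adjusted p = 6.51e-06), and cyclin D1, Ccnd1, was lower as well (-0.63 ± 0.12). The retinoblastoma gene Rb1 (1.04 ± 0.13) and the E2F partner Tfdp2 (1.36 ± 0.14) were higher. Histone genes had 12 of 29 higher and 6 lower. All 5 leading increases were H2A genes of the histone clusters, such as H2ac12, with 10.64, 9.92 and 10.72 on CpG arrays and 12.37, 12.57 and 12.25 with gefitinib (1.97 ± 0.23, adjusted p = 2.05e-05), H2ac15 (2.01 ± 0.24) and H2ac11 (2.07 ± 0.24). The 5 leading decreases were H3 genes, such as H3c13 (-1.01 ± 0.16). Clustered histone genes are near-identical in sequence, so that these probes may share targets and count the same transcripts.

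Of 38 p53-linked and DNA damage genes 21 were higher and 7 lower (median 0.42, or 0.39 with bounds). The damage sensor Ddb2 (1.55 ± 0.12) and the checkpoint kinase Chek2 (1.37 ± 0.16) were higher, and Trp53inp1 was at least 2.45-fold higher. Plk2, a stress-induced polo-like kinase, ran the other way, with 8.88, 9.18 and 8.93 on CpG arrays and 6.19, 6.55 and 6.27 with gefitinib (-2.66 ± 0.16, adjusted p = 2.77e-08). Plk3 (-1.70 ± 0.15), the growth arrest genes Gadd45b (-1.66 ± 0.12) and Gadd45a (at least 2.8-fold) and the p53 ligase gene Mdm2 (-1.03 ± 0.12) were lower too.

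Among 56 cytoskeletal genes 14 were lower and 6 higher. Marcksl1, an actin-binding protein gene, was the lowest (-3.54 ± 0.30), with 11.56, 12.12 and 11.03 on CpG arrays and 7.94, 8.10 and 8.06 with gefitinib. Of 15 macrophage identity genes 8 were lower and 2 higher (median -0.51). Adgre1, a classical surface marker of mouse macrophages, read 11.07, 10.76 and 10.83 with CpG and 8.88, 8.86 and 8.96 with gefitinib (-1.99 ± 0.20, adjusted p = 4.45e-06). The leukocyte gene Ptprc, or CD45, was not past the threshold (-0.48 ± 0.20, adjusted p = 0.0681). S100a8, the calgranulin gene of the granulocyte list, was lower (-3.55 ± 0.18). Vwf of the endothelial list was not detected with CpG (4.58 on average, against 4.94 with gefitinib), and its bound was a 1.01-fold difference. The part of other cell types in the results was not tested.

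Of the 15 largest increases 7 were genes outside the lists. Ypel3 was higher by its brighter probe (2.96 ± 0.19) and not past the threshold by the other (-0.11, adjusted p = 0.708). St6gal1, a sialyltransferase, read 7.26, 6.67 and 7.33 with CpG and 9.84, 9.90 and 9.91 with gefitinib (2.80 ± 0.15, adjusted p = 8.31e-09), with no overlap. Fndc10 (2.78 ± 0.13), Asb10 (2.61 ± 0.18), the ARF regulator Agap1 (2.33 ± 0.17), the adhesion regulator Cytip (2.20 ± 0.14) and the sulfotransferase Chst10 (1.99 ± 0.13) were the others of that group. The commonly used reference genes were not past the threshold: Gapdh 0.08 ± 0.10 (adjusted p = 0.549), Hprt 0.00 ± 0.11 (adjusted p = 0.992), Tbp -0.06 ± 0.11 (adjusted p = 0.739) and Actb -0.28 ± 0.17 (adjusted p = 0.22). These 4 moved across 0 under other settings, and the mean of the probes of Actb gave 0.64.

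Gefitinib without CpG gave fewer differences. Its group means come from the other 6 arrays, while the spread and the detection filter are those of the same fit to all 12. Against untreated cells 402 genes (4.96%) were higher and 230 (2.84%) lower with gefitinib alone. Of the genes higher with gefitinib in CpG-treated cells 318 were also higher without CpG, which is 17.8% of the first list and 79.1% of the second. For the lower genes the number was 139, which is 11.3% and 60.4%. The 457 shared genes fell to 200 under median scaling and rose to 689 with array weights. Another 18 genes were past the threshold in opposite directions, 9 each way.

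Sterol and amino acid genes were prominent on the shared side. Of the 18 sterol genes 12 were higher with gefitinib alone (median 0.94), beside 4.96% of all genes. Hmgcs1 rose from 10.38, 11.12 and 11.27 on the untreated arrays to 12.48, 12.37 and 12.38 (1.49 ± 0.22, adjusted p = 0.00271). The 2 differences of Hmgcs1 did not differ past the threshold (interaction adjusted p = 0.557). Slc6a9 rose from 6.55, 6.21 and 6.65 to 8.16, 8.60 and 8.69 (2.01 ± 0.25, adjusted p = 0.000869), and Aldh1l2 and Mt2 differed by 2.08 ± 0.18 and 1.94 ± 0.30. Among ATF4 targets and one-carbon genes 13 of 29 were higher with gefitinib alone, where 4.96% of all genes were. With CpG the number was 9 of 29 (31.0%), where 22.0% of all genes were higher. Chac1, a glutathione-degrading stress gene, rose from 7.14, 6.96 and 7.12 to 8.85, 8.74 and 8.52 without CpG (1.63 ± 0.18), while with CpG it was 9.09, 8.51 and 9.23 and then 9.06, 8.64 and 9.07 with gefitinib (-0.02 ± 0.18, adjusted p = 0.95). The interaction of Chac1 was past the threshold (adjusted p = 0.000651).

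Inflammatory lists gave smaller counts without CpG, but members not detected there could not be lower. On all 6 arrays without CpG, 8 of 45 interferon-stimulated, 3 of 12 chemokine, 8 of 25 cytokine and 2 of 9 interferon-inducible GTPase genes were not detected. With gefitinib alone 2 of 45 interferon-stimulated genes, 2 of 12 chemokine genes and 0 of 25 cytokine genes were lower, and at an unadjusted limma p under 0.05 these numbers were 11, 2 and 2. In the interferon-inducible GTPase list 3 were lower, Igtp (-0.54 ± 0.12), Gvin1 (-0.83 ± 0.14) and Ifi47 (-0.84 ± 0.15), named after their values were seen, beside 2.84% of all genes. Isg15, Il1b and Cxcl2 had differences of -0.11, 0.02 and -0.11 without CpG, none past the threshold, where the last 2 genes were not detected in either group. Tnf was lower with gefitinib alone by a smaller step (-0.61 ± 0.15, adjusted p = 0.0229), and its interaction was past the threshold (-3.75, adjusted p = 4.18e-08). Cxcr4 was higher in both settings, by 1.18 ± 0.20 without CpG, with an interaction of 3.04 (adjusted p = 5.96e-06). Replication and mitosis genes had 0 and 0 members higher with gefitinib alone, and 2 and 0 lower. At an unadjusted limma p under 0.05 there were 0 and 2 on the higher side and 20 and 4 on the lower. The death-promoting gene Bcl2l11 was higher without CpG (0.75 ± 0.14) and lower with it, and Stat2 behaved likewise (0.56 ± 0.14 without CpG).

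**Figure D5:**
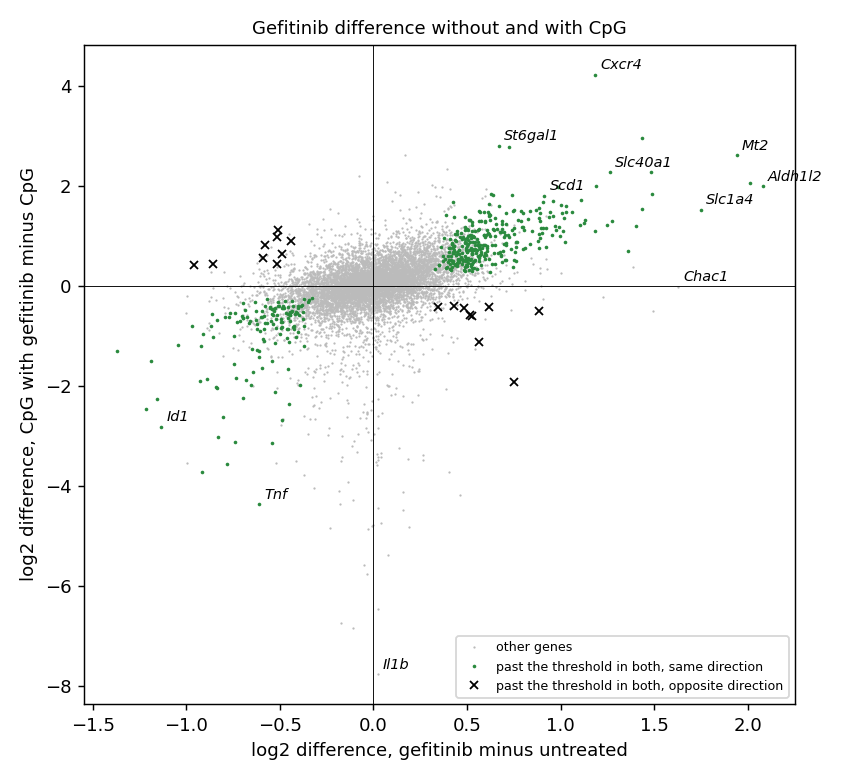
Gefitinib difference with CpG (vertical, log2) against that without CpG (horizontal, log2), 1 point per tested gene, with group means from separate arrays and one estimate of the spread. Green points are the 457 genes past the threshold in the same direction in both, crosses are the 18 in opposite directions, and Il1b lies near 0 on the horizontal axis.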

How the data were processed

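The files hold bead intensity values on a linear scale, deposited without normalization per the file headers and exported with GenomeStudio 2010.2 per the submitters' processing notes. Per the file headers, a detection p-value stands beside each signal. The authors also deposited a table of these intensity values that were quantile-normalized, linear and not centred, as its shared quantiles show, with a median of 120.007 to 120.064 per array, and served as an alternative. The platform's annotation gave 1 gene symbol for 23978 of 25697 probes, several for 0 and none for 1719. Symbols were updated through gene identifiers (23962) or accessions (9), and 8 changed.

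Signals were background-corrected (normexp from the detection p-values, offset 16), quantile-normalized and taken to log2 with neqc of limma 3.58.1 in R 4.3.3. Kept probes were those detected (p under 0.05) on 3 or more of 12 arrays (11283 named), and the probe with the highest mean stood for its gene. Of 2222 genes with several kept probes 902 differed, 484 of them with a probe not past the threshold and 6 with a probe the other way. A model of the 4 groups was fitted to all 12 arrays with lmFit and eBayes, with no block, and p-values were Benjamini-Hochberg adjusted over all genes with a threshold of 0.05. The median standard error was 0.139, and the number of arrays limits the precision. On simulated data with few changed genes and independent noise, differences of 0.5, 1 and 2 were recovered in 38.7%, 97.1% and 100% of cases. There 4.27% of calls were false. Normalization and probe choice were not simulated, and a far larger share of genes differed in the real data. These rates therefore do not measure those of the real calls. Probes of 112 lower and 92 higher genes were undetected in the dimmer group, and a bound could be given for 194 of these genes.

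Gene lists (58, with 1673 tested members) and members were chosen with earlier results of these data known. Named genes were the 15 highest and 15 lowest, up to 5 members past the threshold in each direction of each list, and 18 fixed genes. Same-numbered arrays of the 2 groups deviated together from their group means (correlations of 0.11, 0.344 and 0.35, against -0.375 to 0.023 for other numbers). Deviations within a group cancel out, so that the values for other numbers are not independent of the first. The labels state no pairing, and the numbers were taken to pair the arrays only in an alternative fit with the replicate number as a block. Others were cyclic loess, median scaling, no background correction, other detection filters, the mean of a gene's probes, the 6 arrays alone, array weights, an intensity trend and leaving out each array. Tlr9 was not analysed here.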

Additional observations from a re-analysis of the deposited data

Results flagged for a closer look

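A test of the difference itself, the interaction term over all 12 arrays, found that the gefitinib difference was not the same with and without CpG in 1000 of 8101 genes. The number was 730 under median scaling and 1461 with array weights. The 8101 genes include some that were not detected without CpG, where a lower value with gefitinib could not be seen. Tnf is among the 1000 genes: it differed by -4.36 ± 0.15 with CpG and by -0.61 ± 0.15 without.

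Probes with no gene symbol lie outside the comparison of named genes. Of the 694 such probes that were detected, 223 differed between CpG with gefitinib and CpG alone, 118 higher and 105 lower.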

How the results depend on the processing

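Counts of differing genes ranged from 2345 (median scaling) to 3667 (array weights) beside 3019, and no called gene was called in the opposite direction under any alternative. Cyclic loess gave 1547 higher and 1388 lower genes (52.7% higher, against 59.2%). With the replicate number as a block, 3309 genes differed, and with the block and only the 6 arrays compared, which was chosen after seeing the data, 3110. The block ended the calls of 24 genes and 4 of those the naming rule chose, and moved no count by over 1.5 times. Of the 3019 calls 745 were lost under median scaling, 483 with only the 6 arrays and 394 to 637 when 1 array was left out. The text gives such a loss beside each gene it names from the naming rule. At least 2-fold differences fell to 79 higher and 167 lower without background correction and to 81 and 167 in the authors' value table, and the cause was not tested. Genes shared with gefitinib alone numbered 200 under median scaling and 689 with array weights, and the cause was not tested. Leaving out 1 array gave 2450 to 2896 differing genes. Medians of the 58 gene lists are less stable: 13 to 24 moved by more than their spread between arrays when 1 array was left out (by at most 0.21), 22 under median scaling (at most 0.20), 41 without background correction (at most 1.36) and 40 with no filter on low values (at most 3.59), which adds undetected genes. Kat2b (-0.40) gave 0.056 with detection p under 0.01, where its other probe was used. Reference genes not past the threshold changed sign: Gapdh to -0.13 under median scaling, Actb to 0.64 with the mean of its probes, Tbp to 0.017 with array weights and -0.138 to 0.0044 when 1 array was left out, and Hprt to 0.015 with array weights and -0.072 to 0.066 when 1 array was left out. Dim signal left 112 lower and 92 higher genes undetected in their dimmer group, of which 194 have a bound.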

Other observations

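Several other genes of cell communication and signalling differed and were not named above. In the list of PI3 kinase genes the p110 beta gene Pik3cb was lower (-0.67 ± 0.13). Kinesin and spindle genes were represented by Kif11 (0.84 ± 0.13), and the nuclear lamin gene Lmnb2 (1.06 ± 0.20) and the myosin gene Myo1f (1.07 ± 0.15) were higher. Among nuclear receptors Rxrb (1.23 ± 0.23) and Nr1d2 (1.01 ± 0.18) were higher and Nr1h3, the LXR alpha gene, was lower (-0.46 ± 0.10) by 1 of its 2 probes and not past the threshold under median scaling. Of 15 tested cholesterol efflux and LXR target genes 4 were higher and 2 lower, close to the shares of all genes.

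Some genes were past the threshold in opposite directions with and without CpG. Angptl4, a lipase inhibitor gene, was higher with CpG (1.11 ± 0.12) and lower without (-0.51 ± 0.12), and so was the cell cycle factor gene Mybl2 (0.82 ± 0.11 and -0.58 ± 0.11). The immune checkpoint ligand gene Cd274 was lower with CpG (-0.50 ± 0.15) and higher without (0.88 ± 0.15), the former call being lost when CpG replicate 3 or replicate 1 or 2 of CpG with gefitinib was left out. These 3 genes were chosen after their values were seen.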
